A study of Mus musculus with 10 samples.

Results

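The 9 genes described here encode the cytokines interleukin-31, oncostatin M, leukaemia inhibitory factor and interleukin-6 together with the receptor chains that bind them. They were chosen by name, as Il31, Il31ra, Osm, Osmr, Lif, Lifr, Il6, Il6ra and Il6st, and all 9 matched an Ensembl identifier among the 41388 genes listed per library. RNA of whole ear skin was sequenced in 10 C57Bl/6 mice with 1 library per mouse, 6 in the Experimental group and 4 in the Littermate group. Mice of both groups had received topical calipotriol (MC903, a vitamin D analogue that inflames skin and provokes itch) at 1 nM each day for 12 days, so no untreated skin enters the comparison. The genotype label of the Experimental mice reads NaV1.8+ Jak1F/F, whereas the series title and design text give NaV1.8+ Il4raF/F, and the Littermate mice are labelled WT. Jak1 is a kinase bound by the receptors of this cytokine family, Il4ra is the chain shared by the IL-4 and IL-13 receptors, and NaV1.8 is a sodium channel of sensory neurons. The labels name no Cre line, age, sex or litter, and which gene was floxed in these mice is not settled by them.

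These cytokines signal through receptors that pair a ligand-specific chain with a shared one. Interleukin-6, leukaemia inhibitory factor and oncostatin M use gp130, the product of Il6st, beside Il6ra, Lifr and Osmr. Interleukin-31 is the exception, since its receptor joins Il31ra to Osmr and lacks gp130. All of these receptors activate Janus kinases and STAT transcription factors, STAT3 above all. In skin, interleukin-31 is made mainly by activated T helper cells and acts on itch-sensing neurons and keratinocytes, and oncostatin M is made by myeloid and T cells and acts on keratinocytes, fibroblasts and sensory neurons.

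Total counts ran from 11520348 to 41935183 in the Experimental libraries and from 12865459 to 14324433 in the Littermate libraries. Keratinocyte markers were abundant, with Krt14 at a mean of 16867 normalized CPM in Experimental and 16829 normalized CPM in Littermate skin (counts per 1e6 reads after TMM scaling). Of the sensory neuron markers, Scn10a, the gene of NaV1.8, had 2 counts in all, so skin RNA gives no check of a change confined to those neurons. Of 16830 genes tested with edgeR's quasi-likelihood test, 3 passed an adjusted p of 0.05 (0.0178%), 1 higher and 2 lower in Experimental skin. Before adjustment, 1978 genes (11.8%) had a p under 0.05. Experimental 6 and Littermate 2 bear on several results below, which are given with and without them. Of the 8 genes of this family that were tested, 5 were highest among Experimental libraries in Experimental 6. In Littermate 2, 7 were lowest among Littermates. Leaving these libraries out therefore moves the log2 fold changes of such genes down by construction, which is no separate evidence of a decrease. In bulk skin, fewer cells of a type and less RNA per cell cannot be told apart.

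No member passed this test between Experimental and Littermate skin, which does not show that their levels are equal. Of the 9 genes, 8 passed the filter on low counts and 0 of these 8 passed at an adjusted p of 0.05, as also at an unadjusted p under 0.05. None passed in DESeq2, with no filter on low counts or in limma voom with quality weights either, where 1.53%, 0.264% and 0.357% of the genes tested passed. Their median log2 fold change was -0.10, within a range from -0.22 for Il6ra to 0.13 for Lif, against a median of -0.0013 over all tested genes. The log2 fold change was negative in 7 of the 8 members and in 50.4% of all tested genes. The ranges of the 2 groups overlapped for all 8 members, whereas they did not overlap for 2.12% of all tested genes. The ninth, Il31, was at the limit of detection.

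Promoters were read from RefSeq on GRCm38.p6 for 8 of the 9 genes, from 250 bases before to 50 bases after the annotated start. Il6, Lif and Il31ra are shown, the first 2 because they are ligands that stood high in Experimental 6 and Il31ra because it varied most among Littermates. Capitals mark matches, on either strand, to a STAT motif (TTCNNNGAA), an AP-1 motif (TGANTCA) or an NF-kB motif (GGG, any 2 bases, then TTTCC). None of these motifs overlap in the sequences below.
Il6, chr5:30012864-30013163, plus strand: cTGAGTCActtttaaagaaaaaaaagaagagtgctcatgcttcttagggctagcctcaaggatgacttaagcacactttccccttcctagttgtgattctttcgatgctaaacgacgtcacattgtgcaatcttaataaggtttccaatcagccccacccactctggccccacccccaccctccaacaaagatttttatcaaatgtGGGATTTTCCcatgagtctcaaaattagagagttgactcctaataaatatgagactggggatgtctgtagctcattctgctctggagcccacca
Lif, chr11:4257318-4257617, plus strand: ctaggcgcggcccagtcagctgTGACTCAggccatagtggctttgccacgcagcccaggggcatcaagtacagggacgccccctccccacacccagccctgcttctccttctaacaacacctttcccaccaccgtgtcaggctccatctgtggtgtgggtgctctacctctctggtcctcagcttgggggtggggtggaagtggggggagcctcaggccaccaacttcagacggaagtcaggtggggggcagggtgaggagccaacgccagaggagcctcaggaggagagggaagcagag
Il31ra, chr13:112580613-112580912, minus strand: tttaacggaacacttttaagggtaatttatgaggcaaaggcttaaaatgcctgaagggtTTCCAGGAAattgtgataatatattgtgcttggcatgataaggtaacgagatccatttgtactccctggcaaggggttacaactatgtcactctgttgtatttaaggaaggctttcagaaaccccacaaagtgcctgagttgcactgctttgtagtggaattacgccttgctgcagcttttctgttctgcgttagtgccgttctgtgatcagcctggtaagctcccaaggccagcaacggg

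The Il6 window held 1 AP-1 match and 1 NF-kB match, which begins 44 bases before the annotated start. The Lif window held 1 AP-1 match and the Il31ra window held 1 STAT match, 191 bases before the start. Osmr held 1 AP-1 match, and the windows of Il6st, Il6ra, Lifr and Il31 held none of the 3 motifs. Of 32851 promoter windows in the table, 8.30% held the STAT motif, 7.81% the AP-1 motif and 1.63% the NF-kB motif. A match is a string of letters and no measure of binding.

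Of the ligands, Il31 (ENSMUSG00000029437, mm10 chromosome 5, 123480153 to 123482101, minus strand) was barely seen. It had 1 count in Experimental 2 and 1 count in Littermate 1, and 0 counts in the other libraries. A count of 0 allows up to 3 counts, which corresponds to 0.0715 to 0.260 CPM depending on the depth of the library. No difference between the groups could therefore be seen at this depth, and the gene was not tested. Cd3e, a chain of the T cell receptor complex, was measured at a mean of 3.27 normalized CPM in Experimental and 2.99 normalized CPM in Littermate skin, so transcripts of T cells were present in both. The deposited gene model of Il31 spans 810 bases in 3 blocks, and GENCODE M21, an annotation on the same mm10 assembly, lists 402 exonic bases outside it, where reads were not counted.

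Osm (ENSMUSG00000058755, chromosome 11, 4236420 to 4241026, plus strand) encodes oncostatin M. Its normalized CPM had a lowest value of 3.51, a median of 7.74 and a highest value of 22.1 in the 6 Experimental libraries, and was 12.4, 6.08, 10.7 and 10.99 in Littermates 1 to 4. Experimental 6 stood alone at the top, while the next Experimental library had 8.43. The remaining 5 Experimental libraries all lay below Littermates 1, 3 and 4, and 3 of them lay above Littermate 2, so the groups overlapped with or without Experimental 6. Means were 9.06 ± 6.65 CPM in Experimental (SD, n = 6) and 10.1 ± 2.76 CPM in Littermate skin (SD, n = 4), which edgeR put at -0.15 on the log2 scale (95% limits -1.22 and 0.91, adjusted p = 0.932). Without Experimental 6 the log2 fold change was -0.63 (edgeR, unadjusted p = 0.0364, adjusted p = 0.329). Experimental 6 was the highest Experimental and Littermate 2 the lowest Littermate library for Osm. Leaving both out lowers the log2 fold change by construction, here to -0.80 (edgeR, adjusted p = 0.0944), in a fit where 3.34% of all tested genes passed. Over the 21 alternative fits the adjusted p of Osm ran from 0.0944 to 1.0.

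Il6 (ENSMUSG00000025746, chromosome 5, 30013161 to 30019968, plus strand), an inflammatory cytokine of macrophages, fibroblasts and keratinocytes, is the member whose promoter, printed above, held the NF-kB match. It had 380 counts in all over the 10 libraries. Measured in normalized CPM it had a lowest value of 1.29, a median of 1.63 and a highest value of 4.71 in Experimental skin, against 2.66, 2.13, 1.85 and 2.34 in Littermates 1 to 4. Experimental 6 was again the highest of all libraries, Experimental 5 lay among the Littermates at 2.27, and the other 4 Experimental libraries lay below every Littermate. Experimental over Littermate came to -0.12 on the log2 scale (95% limits -0.90 and 0.67, edgeR adjusted p = 0.931), and -0.52 without Experimental 6 (edgeR, unadjusted p = 0.028, adjusted p = 0.30). Over the 21 alternative fits the adjusted p of Il6 ran from 0.234 to 0.999.

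Lif (ENSMUSG00000034394, chromosome 11, 4257557 to 4272514, plus strand) encodes leukaemia inhibitory factor, which sustains stem cells and also acts on neurons. It lies 16530 bases downstream of Osm with no other listed gene starting between them. Its normalized CPM had a lowest value of 2.60, a median of 3.38 and a highest value of 5.66 in Experimental skin, against 3.60, 2.86, 3.91 and 3.74 in Littermates 1 to 4. Experimental 1 and Experimental 6, at 5.66 and 5.29 CPM, lay above all Littermates and the other 4 lay within or below their range. In edgeR the log2 ratio of Experimental to Littermate skin was 0.13 (95% limits -0.37 and 0.62, adjusted p = 0.874). Lif was highest in Experimental 1, whereas its neighbour Osm was highest in Experimental 6.

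**Figure D1:**
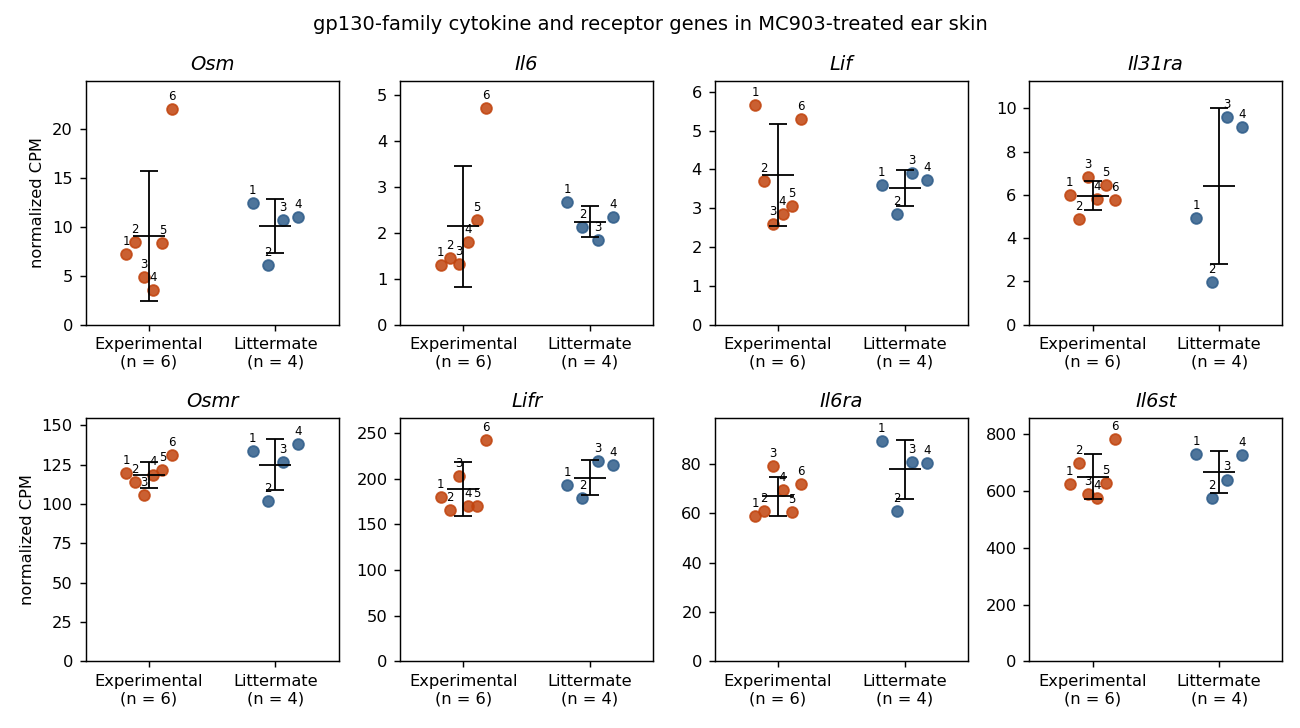
Normalized CPM of 8 genes in each library, with Experimental mice (n = 6, orange) left of Littermate mice (n = 4, blue); digits are replicate numbers, horizontal marks are means and bars are SD. Experimental 6 stands at 22.1 CPM for Osm and 4.71 CPM for Il6, above the other 9 libraries, and Littermate 2 is the lowest library for Il31ra at 1.98 CPM.

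The spread of the ligands between mice was wide in Experimental skin. In Experimental skin the coefficient of variation was 73.4% for Osm, 61.4% for Il6 and 33.9% for Lif, higher than in 99.7%, 99.5% and 93.9% of all tested genes. In Littermate skin it was 27.4% for Osm, 15.3% for Il6 and 13.1% for Lif, higher than in 85.4%, 58.6% and 49.6% of tested genes. The median gene varied by 11.1% in Experimental and 13.2% in Littermate skin. Experimental 6 accounts for most of the range of Osm and Il6, and the difference in spread was not tested.

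Neutrophil and basophil markers were high beside these ligands in Experimental 6, and other cell type lists were mixed. All 6 neutrophil markers (S100a8, S100a9, Csf3r, Cxcr2, Retnlg and Ly6g) were highest in that library among the Experimental mice, although Ly6g had too few counts to rank. The summed level of all 6 was 490.2 CPM in Experimental 6, 199 to 327 CPM in the other 5 Experimental libraries and 294 to 573 CPM in the Littermates. Most of the sum in Experimental 6 came from S100a8 and S100a9, at 130.4 and 263.2 CPM. Csf3r, the receptor of the neutrophil growth factor G-CSF, stood at 43.1 CPM in Experimental 6, at most 17.4 CPM in the other Experimental libraries and 19.6 to 31.8 CPM in the Littermates. Ly6g, a defining neutrophil surface marker, had 9 counts in all and at most 0.291 CPM in any library. It was at 0 in some libraries of both groups, and no marker of the list was at 0 throughout. Littermate 2 had the highest neutrophil sum of all through S100a8 and S100a9, at 219.7 and 301 CPM. However, Csf3r, Cxcr2 and Retnlg, like Osm, were at their lowest Littermate value there, and Ly6g had too few counts to rank. The 3 basophil markers (Mcpt8, Cd200r3 and Prss34) were likewise highest in Experimental 6 among the Experimental mice, with a sum of 37.9 CPM there, 13.6 to 23.1 CPM in the other 5 and 23.4 to 34.7 CPM in the Littermates, and none was at 0. The 5 macrophage markers summed to 1570 CPM in Experimental 6, 1014 to 1378 CPM in the other Experimental libraries and 1468 to 1744 CPM in the Littermates, and none was at 0. However, 2 of these 5 were highest in Experimental 6 among the Experimental mice and 3 in Experimental 1. Of the macrophage markers, Lyz2 (lysozyme) was 1 of the 3 genes that passed over all genes, with a mean of 237 CPM in Experimental and 445 CPM in Littermate skin. None of the 4 dendritic cell markers was highest in Experimental 6, where their sum was 46.3 CPM, within 45.9 to 58.3 CPM over all Experimental libraries and 46.2 to 55.2 CPM in the Littermates. The mast cell sum was also highest in Experimental 6 among the Experimental libraries, at 472 CPM against 360.3 to 426 CPM in the other 5 and 418 to 487 CPM in the Littermates. So was the fibroblast sum, at 9038 CPM in Experimental 6, 6912 to 8221 CPM in the other 5 and 6670 to 10888 CPM in the Littermates. The part of these cells in the ligand values was not tested.

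The receptor chains other than Il31ra were more abundant than the ligands, and in Experimental skin they varied less between mice. Il6st (ENSMUSG00000021756, chromosome 13, 112464070 to 112510086, plus strand) encodes gp130, the shared signalling chain. Measured in normalized CPM it had a lowest value of 576, a median of 628 and a highest value of 784 in Experimental skin, against 730.4, 576, 641 and 727 in Littermates 1 to 4. Experimental 6 was the highest library and Experimental 4 the lowest, so the Experimental values enclosed those of the Littermates. Experimental over Littermate came to -0.04 on the log2 scale (95% limits -0.26 and 0.18, edgeR adjusted p = 0.917), which corresponds to folds from 0.838 to 1.13. Without Littermate 2 and Experimental 6 it was -0.16 (edgeR, adjusted p = 0.372).

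Il6ra (ENSMUSG00000027947, chromosome 3, 89869324 to 89913162, minus strand) encodes the chain that binds interleukin-6. Its normalized CPM had a lowest value of 58.7, a median of 65.2 and a highest value of 79.0 in Experimental skin, against 89.2, 61.0, 80.6 and 80.3 in Littermates 1 to 4. Littermate 2 fell within the Experimental range and the other 3 Littermates lay above every Experimental library. Means were 66.8 ± 7.97 CPM in Experimental (SD, n = 6) and 77.8 ± 11.9 CPM in Littermate skin (SD, n = 4). The log2 fold change of -0.22 (SE 0.11, 95% interval from -0.45 to 0.01) was the largest of the members by size and had the lowest p among them (edgeR, unadjusted p = 0.0614, adjusted p = 0.455). Without Littermate 2 it was -0.32 (edgeR, unadjusted p = 0.00452, adjusted p = 0.101), in a fit where 2.01% of all tested genes passed. Without Littermate 2 and Experimental 6 it was -0.34 (edgeR, adjusted p = 0.0757). Il6ra kept a negative log2 fold change in all 21 alternative fits, with adjusted p from 0.0757 to 0.965.

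Osmr (ENSMUSG00000022146, chromosome 15, 6813577 to 6874969, minus strand) encodes the chain used by both oncostatin M and interleukin-31. Measured in normalized CPM it had a lowest value of 105, a median of 119 and a highest value of 131 in Experimental skin, against 134, 102, 126 and 138 in Littermates 1 to 4. All 6 Experimental libraries lay between the lowest and the highest Littermate. In edgeR the log2 ratio of Experimental to Littermate skin was -0.08 (95% limits -0.26 and 0.11, adjusted p = 0.771). It was -0.17 without Littermate 2 (edgeR, unadjusted p = 0.0415, adjusted p = 0.268) and -0.19 without Littermate 2 and Experimental 6 (edgeR, unadjusted p = 0.0187, adjusted p = 0.163).

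Lifr (ENSMUSG00000054263, chromosome 15, 7129559 to 7197489, plus strand) encodes the chain that binds leukaemia inhibitory factor and lies 254589 bases from Osmr on the opposite strand. Its normalized CPM had a lowest value of 166, a median of 175 and a highest value of 243 in Experimental skin, against 193, 178, 219 and 215 in Littermates 1 to 4. Experimental 6 lay above all Littermates and Experimental 2, 4 and 5 lay below all of them. Experimental over Littermate came to -0.09 on the log2 scale (95% limits -0.32 and 0.13, edgeR adjusted p = 0.777), and -0.18 without Experimental 6 (edgeR, adjusted p = 0.383). Without Littermate 2 and Experimental 6 it was -0.23 (edgeR, unadjusted p = 0.0149, adjusted p = 0.145).

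Il31ra (ENSMUSG00000050377, chromosome 13, 112522810 to 112580662, minus strand) encodes the chain specific to interleukin-31, has the promoter with the STAT match, and lies 12723 bases from Il6st on the opposite strand. Measured in normalized CPM it had a lowest value of 4.89, a median of 5.90 and a highest value of 6.83 in Experimental skin, against 4.93, 1.98, 9.60 and 9.12 in Littermates 1 to 4. The Experimental libraries lay close together, whereas Littermate 2 stood below and Littermates 3 and 4 stood above all of them. The coefficient of variation was 11.2% in Experimental and 56.5% in Littermate skin, the second higher than in 98.7% of all tested genes, and this difference in spread was not tested. In edgeR the log2 ratio of Experimental to Littermate skin was -0.11 (95% limits -0.81 and 0.60, adjusted p = 0.929). It was -0.41 without Littermate 2 (edgeR, unadjusted p = 0.0446, adjusted p = 0.278), 0.17 without Littermate 3 (edgeR, adjusted p = 0.889) and 0.12 without Littermate 4 (edgeR, adjusted p = 0.962). Il31ra and its partner Osmr were both lowest in Littermate 2 among all 10 libraries.

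**Figure D2:**
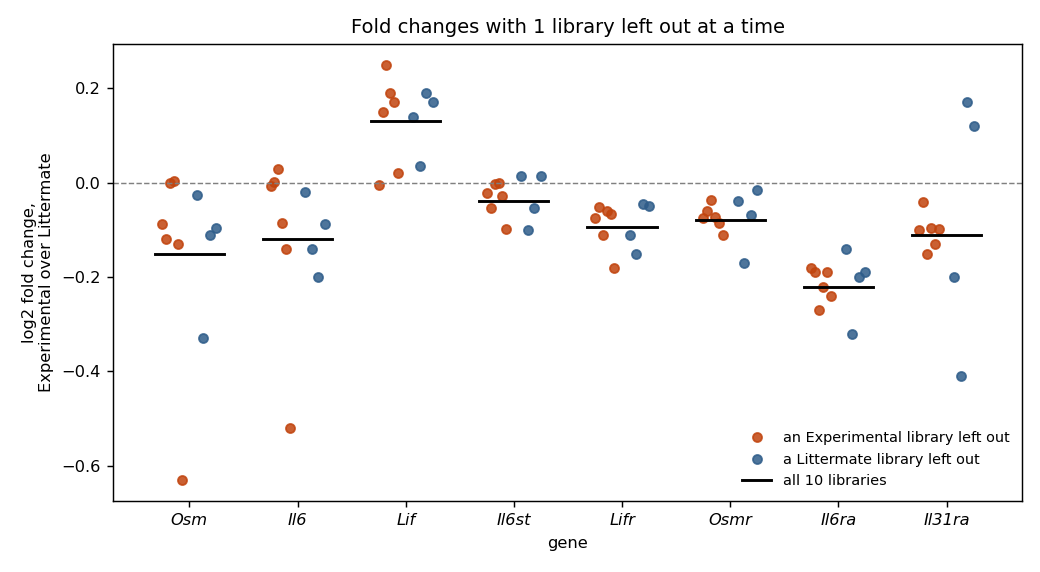
Log2 fold change, Experimental over Littermate, of each tested member with all 10 libraries (black bar) and with 1 library left out at a time (orange for an Experimental and blue for a Littermate library). Osm and Il6 shift to -0.63 and -0.52 without Experimental 6, and Il31ra runs from -0.41 to 0.17 as Littermates are left out.

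Levels can be compared between genes only per length, for which the deposited RPKM values (CPM per kilobase of exons) were used. Il6st had the highest mean at 58.8 ± 7.02 RPKM in Experimental (SD, n = 6) and 59.7 ± 6.45 RPKM in Littermate skin (SD, n = 4), above 97.4% of all genes with a count. Il6ra followed at 20.04 ± 2.44 RPKM in Experimental and 23.0 ± 3.45 RPKM in Littermate skin. Lifr stood at 18.3 ± 2.89 RPKM in Experimental and 19.3 ± 1.67 RPKM in Littermate skin. Il6ra exceeded Lifr in 9 of 10 libraries, although their ranges over libraries overlapped. Osmr came next at 9.81 ± 0.719 RPKM in Experimental and 10.2 ± 1.28 RPKM in Littermate skin, below Lifr in all 10 libraries. The ligands and Il31ra stood lower still. Osm averaged 4.00 ± 2.94 RPKM in Experimental and 4.38 ± 1.19 RPKM in Littermate skin, and Il6 averaged 1.98 ± 1.21 RPKM in Experimental and 2.05 ± 0.318 RPKM in Littermate skin. Il31ra averaged 1.63 ± 0.177 RPKM in Experimental and 1.73 ± 0.967 RPKM in Littermate skin. Lif averaged 0.891 ± 0.301 RPKM in Experimental and 0.803 ± 0.0998 RPKM in Littermate skin. Osm exceeded Il6, and Il31ra exceeded Lif, in 9 of 10 libraries, with ranges that overlapped. Il6 exceeded Il31ra in 6 of 10 libraries, so these neighbours in the order did not differ beyond their spread. Gene lengths are those of all exons of the deposited gene model, and levels per length would be understated where long exons are little used.

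**Figure D3:**
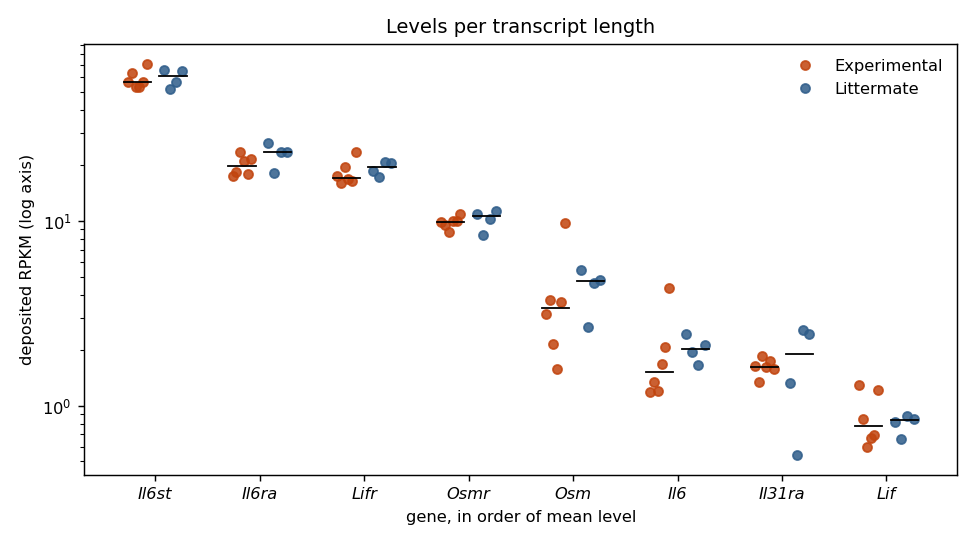
Deposited RPKM on a log axis for 8 genes in order of mean level, each point a library, with Experimental (orange) left of Littermate (blue) and a bar at the median. Il6st lies at 52.0 RPKM or above in every library, Il6ra and Lifr overlap, and Il6 and Il31ra overlap.

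Within each library the RNA levels of the chains of a receptor were far from equal. These are ratios of RNA in whole skin and do not measure the balance of chains within a cell or as protein. Osmr exceeded its partner Il31ra per length by a median of 6.12 times in Experimental skin (4.67 to 7.06) and 6.39 times in Littermate skin (3.98 to 15.5). The highest ratio belonged to the Littermate library with the lowest Il31ra. Il6st exceeded Osmr by a median of 5.91 times in Experimental and 5.85 times in Littermate skin. It exceeded Lifr by a median of 3.20 times in Experimental and 3.08 times in Littermate skin. It exceeded Il6ra by a median of 3.17 times in Experimental skin (2.25 to 3.45) and 2.60 times in Littermate skin (2.39 to 2.85). For all 4 pairs the ranges of the groups overlapped.

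Across libraries, 2 mice held many of the extremes. Experimental 6 was the highest of the 10 libraries for Osm, Il6, Lifr and Il6st, which makes 4 of the 8 tested members, and the highest Experimental library for Osmr as well. That library was thus the highest Experimental library for 5 of the 8 members, while 19.5% of all tested genes had their highest Experimental value there. Littermate 2 was the lowest Littermate for 7 of the 8 members, Il6 being the other, while 29.8% of all tested genes had their lowest Littermate value there. These counts are a description, since the members share libraries and are not independent.

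**Figure D4:**
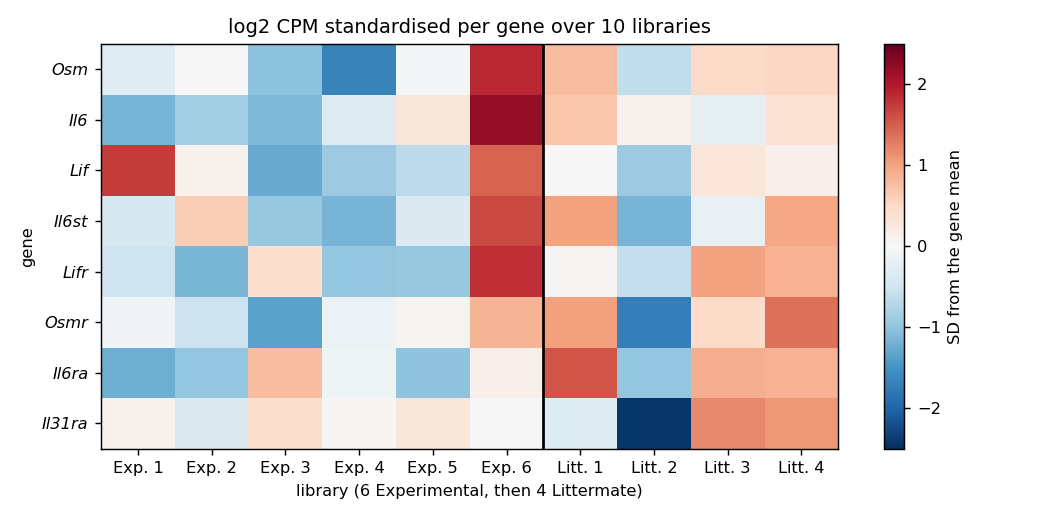
Log2 CPM of 8 genes standardised per gene over 10 libraries (SD from the gene mean, red high and blue low), with Experimental libraries left of the line and Littermate libraries right of it. Experimental 6 is high for Osm, Il6, Lif, Il6st and Lifr, and Littermate 2 is low for Il31ra and Osmr.

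The genes whose pattern over the 10 libraries was most like a member were found by the mean absolute difference of standardised log2 CPM values, over 14222 genes of at least 1 CPM. This is a description without a test, and the median gene differed from Osm by 1.09 SD. Nearest to Osm were Bend4 (0.17 SD) and Fpr1 (0.20 SD), the formyl peptide receptor of neutrophils and other phagocytes. Nearest to Il6 were Ccl24 (0.26 SD), a chemokine for eosinophils, and Guca1a (0.26 SD). Nearest to Lif were Vav1 (0.24 SD), a signalling protein of blood cells, and Aga (0.29 SD), a lysosomal enzyme. Nearest to Il6st were Tgfbi (0.26 SD), a matrix protein, and Atp8b2 (0.27 SD), and nearest to Lifr were Rubcnl and Map3k3 (0.31 SD each). Nearest to Il31ra were Met (0.24 SD), the receptor of hepatocyte growth factor, and Adgrl2 (0.26 SD), an adhesion G protein-coupled receptor. Nearest to Osmr were Tbc1d2 (0.20 SD) and Nploc4 (0.23 SD), and nearest to Il6ra were Ahnak2 (0.23 SD) and Sox12 (0.26 SD), a transcription factor. Among the members themselves, Osm and Il6st were nearest to each other at 0.37 SD, with Il6st at rank 60 of the genes compared with Osm.

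Other genes of the pathway were read from 4 lists of 36 genes, of which 30 passed the filter on low counts. None passed over all genes in edgeR, and 3 had an unadjusted p under 0.05, all with negative log2 fold changes. This is 10% of the tested list genes, against 11.8% of all tested genes in either direction and 8.1% with a lower level. The median log2 fold change of the 30 was -0.05, with 20 negative and 10 positive. The groups did not overlap for 1 of the 30 (3.33%, against 2.12% of all tested genes), which was Bcl3.

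Among the other ligands of the family, 2 of 7 were tested and neither passed. Ebi3, a subunit of interleukin-27, averaged 1.25 ± 0.193 CPM in Experimental (SD, n = 6) and 1.54 ± 0.176 CPM in Littermate skin (SD, n = 4), or -0.29 on the log2 scale (edgeR, adjusted p = 0.584). Ctf1, which encodes cardiotrophin, averaged 3.09 ± 0.823 CPM in Experimental (SD, n = 6) and 2.82 ± 1.24 CPM in Littermate skin (SD, n = 4), or 0.13 on the log2 scale (edgeR, adjusted p = 0.884). Its value was -0.0094 without Littermate 4. Clcf1, a ligand of the ciliary neurotrophic factor receptor, had 0 counts in every library, and Il11, Cntf, Ctf2 and Il27 had too few counts to test.

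Of the other receptor chains, Il11ra1, which binds interleukin-11, averaged 47.9 ± 5.75 CPM in Experimental (SD, n = 6) and 45.1 ± 3.65 CPM in Littermate skin (SD, n = 4), or 0.09 on the log2 scale (edgeR, adjusted p = 0.756). Cntfr, the chain for ciliary neurotrophic factor, stood at -0.18 (edgeR, adjusted p = 0.835), and at 0.20 without Littermate 4. The list had a median of 0.02 over 3 tested chains, with Il27ra at 0.02, and Il11ra2 had 0 counts.

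None of the 13 signal transducers, shedding proteases and inhibitors passed, at an adjusted or an unadjusted p of 0.05, and their median log2 fold change was -0.06. Stat3, the main transducer of gp130, averaged 386 ± 24.1 CPM in Experimental (SD, n = 6) and 405 ± 35.5 CPM in Littermate skin (SD, n = 4), and Jak1 averaged 298 ± 18.5 CPM in Experimental and 310 ± 25.4 CPM in Littermate skin. The members of the list with the lowest p were Stat5a at -0.17 (edgeR, adjusted p = 0.509), Stat5b at -0.14 (edgeR, adjusted p = 0.55), the feedback inhibitor Socs1 at -0.21 (edgeR, adjusted p = 0.591) and Socs3 at -0.19 (edgeR, adjusted p = 0.609). Socs3, the inhibitor that binds gp130, had a lowest value of 59.6, a median of 70.02 and a highest value of 103.1 CPM in Experimental skin, against 92.8, 75.6, 85.2 and 79.8 CPM in Littermates 1 to 4. Experimental 6 lay above all Littermates and the other 5 Experimental libraries lay below all of them. Littermate 2 held the lowest Littermate value of Socs3 and Experimental 6 its highest Experimental value. Leaving both out therefore lowers the log2 fold change by construction. Without Littermate 2 and Experimental 6 Socs3 passed at -0.35 (edgeR, adjusted p = 0.0432), the only one of the 21 alternative fits in which it did. In that fit 3.34% of all tested genes passed, and Socs3 was the only gene of the 4 lists to do so. Its adjusted p ran from 0.0432 to 0.99 over the 21.

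Of 12 STAT3 target genes none passed, and the median log2 fold change was -0.08, with 9 negative and 3 positive. Bcl3, a nuclear regulator of NF-kB target genes, had a lowest value of 14.5, a median of 17.8 and a highest value of 18.4 CPM in Experimental skin, against 24.1, 19.9, 19.8 and 25.4 CPM in Littermates 1 to 4. All 6 Experimental libraries lay below all Littermates, with Experimental over Littermate at -0.38 on the log2 scale (edgeR, unadjusted p = 0.00202, adjusted p = 0.159), and adjusted p ran from 0.055 to 0.937 over the 21 alternative fits. Myc, a growth regulator, stood at -0.31 (edgeR, adjusted p = 0.339), the immediate early gene Fos at -0.41 (edgeR, adjusted p = 0.421) and the transcription factor Cebpb at -0.16 (edgeR, adjusted p = 0.763). The acute-phase genes Saa3, at -0.03, and Hp, at 0.15, varied widely between mice, with SDs of 22.4 and 67.2 CPM around means of 25.8 and 236 CPM in Experimental skin.

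**Figure D5:**
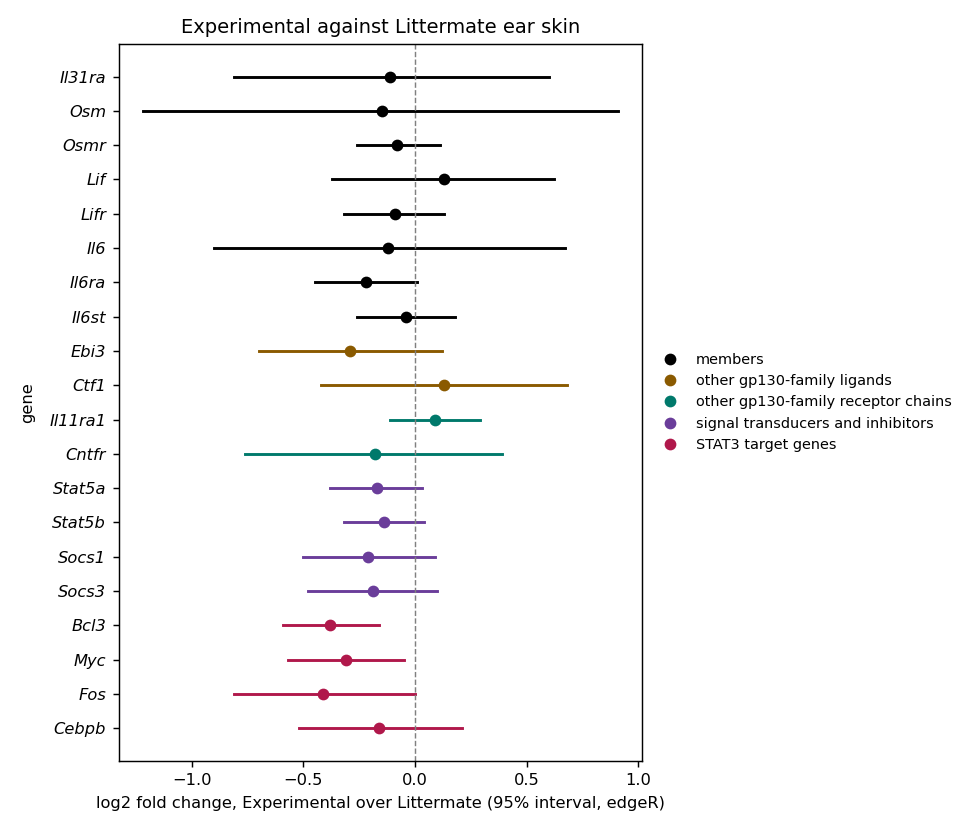
Log2 fold changes, Experimental over Littermate, with 95% intervals (edgeR) for the 8 tested members and 12 named pathway genes; the dashed line marks no difference. The 8 member intervals include 0, and those of Bcl3, Myc and, narrowly, Fos lie below 0 without passing adjustment over all genes.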

How the data were processed

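Libraries were random-primed from RNA without its ribosomal part and read from a single end, per the labels' protocols. The tools listed in the submitters' processing notes are STAR 2.0.4b for the mm10 assembly, featureCounts 1.4.5 and Subread. The strand setting, annotation release and handling of multimapped reads were not given in the sources used here. No other listed gene has an exon that overlaps one of a member. The authors deposited read counts per gene, with CPM (count over the library total) and RPKM (CPM per kilobase) computed from them. Only counts entered tests.

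The counts of all 10 libraries were fitted in edgeR 4.0.16 under R 4.3.3 (TMM factors from 0.984 to 1.02, filterByExpr, robust quasi-likelihood, group as the only term, two-sided), with Benjamini-Hochberg adjustment over 16830 genes. The common biological coefficient of variation was 12.8%. In simulated counts for this comparison, run on 16668 genes, 94 of the 103 genes given a 2-fold change were called (91.3%), as were 63 of the 97 given a 1.5-fold change (64.9%), with 4 false calls among 161. Every simulated gene was given the common variation of 12.8%. These shares cannot be carried over to genes that varied more, such as Osm and Il6 in Experimental and Il31ra in Littermate skin. Symbols matched 97.3% of identifiers. Alternatives were other size factors and filters, DESeq2 1.42.0, limma 3.58.1 voom, further covariates and libraries left out. The p-values set group differences against the spread between these mice and treat the mice as independent. The labels do not say whether the mice shared litters or batches, so this independence is not known. The limit of 3 counts covers counting error alone. The members and lists were chosen with earlier results of these data known. Named genes are the members, the 4 genes of lowest p per pathway list (2 for lists with under 6 tested) and the 2 genes most alike each member in pattern. Il27ra, Stat3, Jak1, Saa3, Hp and the single markers were named after their values were seen. Some genes of the pathway lists are not reported here and were left out of the list counts.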

Additional observations from a re-analysis of the deposited data

Results flagged for a closer look

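In the 6 Experimental libraries, Experimental 6 stood apart for Osm at 22.1 normalized CPM, where the other 5 lay between 3.51 and 8.43. The same library stood apart for the inhibitor Socs3 at 103.1 normalized CPM, where the other 5 lay between 59.6 and 73.5, and for Il6 at 4.71 normalized CPM, where the other 5 lay between 1.29 and 2.27. All 3 are given because that library lay far from the others: the gap to the nearest, as a fraction of the range of the group, was 0.735 for Osm, 0.713 for Il6 and 0.68 for Socs3. These were 3 of 40 groups of values examined, and chance alone flags about 1 in 20. Over all tested genes, Experimental 6 stood apart as the highest Experimental library for 250 of 16830 (1.49%).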

How the results depend on the processing

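No member passed in any of 21 alternative fits. Over these fits 150 of 168 member values kept their sign and stayed unpassed, and 18 changed sign without passing. Changes of sign were Il31ra at 0.12 with limma voom, 0.026 with the replicate block, 0.17 with the Y-linked level as a covariate, 0.17 without Littermate 3 and 0.12 without Littermate 4. Osm changed to 0.00016 without Experimental 3, 0.0027 without Experimental 4 and 0.059 without the 2 deepest libraries, and Lif to -0.0048 without Experimental 1 and -0.067 without Littermate 2 and Experimental 6. Il6 changed to 0.00067 without Experimental 2, 0.03 without Experimental 3 and 0.19 without the 2 deepest, and Il6st to 0.014 without Littermate 1 or 4 and 3.2e-06 without Experimental 4. With the Y-linked covariate Il6st stood at 0.078, Osmr at 0.041, Cntfr at 0.47, Ctf1 at -0.18, Stat5b at 0.038, Socs1 at 0.062 and Cebpb at 0.077. That covariate, a centred sum of log2 levels, ran from -1.42 to 0.11 in Littermate and from -0.208 to 0.82 in Experimental libraries. It therefore partly follows the group. Cntfr stood at 0.063 with the block and 0.20 without Littermate 4, and Ctf1 at -0.0094 without Littermate 4. The cause was not tested. With 1 library left out, values ran from -0.41 to 0.17 for Il31ra, -0.63 to 0.0027 for Osm, -0.0048 to 0.25 for Lif, -0.52 to 0.03 for Il6, -0.10 to 0.014 for Il6st, -0.0094 to 0.48 for Ctf1 and -0.39 to 0.20 for Cntfr. For replicate numbers 1 to 4, deviations from the group means correlated at 0.03, -0.02, 0.09 and -0.02 between the 2 mice of a number. These values show no pairing by number but do not settle whether such mice shared a litter or batch. Numbers 5 and 6 occur only in the Experimental group, so Experimental 5 and Experimental 6 do not inform the group term of the block fit. The block changed no member's call.

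The count of 3 genes called was 78 with no filter, 229 with DESeq2, 60 with quality-weighted voom, 67 with the replicate block and 563 without Littermate 2 and Experimental 6. The 67 come from a group term that Experimental 5 and Experimental 6 do not inform, so the block and the loss of these libraries cannot be told apart. With 1 library left out it ran from 3 to 343, at 343 without Littermate 2, 28 without Experimental 6 and 8 without Littermate 3. The count of 0 pathway genes was 1 without Littermate 2 and Experimental 6, and 0 with any single library left out. At 380 counts over 10 libraries Il6 was measured with little precision, and Il31 lay below what this depth can compare.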
